A study of Mus musculus with 18 samples.

Results

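The 9 genes described here build the basement membrane or mark the primitive endoderm, the early embryonic tissue that makes much of it. They were taken by name from a table of read counts over 54446 genes in 18 libraries of nuclear RNA from mouse embryonic stem cells of strain C57BL/6. All 9 were found. They are the collagen IV chain genes Col4a1 and Col4a2, the laminin chain genes Lama1, Lamb1 and Lamc1, the collagen-binding matrix protein gene Sparc, and the endoderm genes Gata6, Sox17 and Dab2. The study asked how nuclear RNA decays without YTHDC1, a nuclear protein that reads the RNA mark N6-methyladenosine (m6A), and what changes without METTL3, the enzyme that writes m6A. In the first experiment, cells labelled Ythdc1 cKO and their Ythdc1 control were cultured for 48 h and taken after 0, 3 or 6 h of actinomycin D at 5 µg/ml, a drug that stops transcription. In the second, lines labelled Mettl3 KO1 and KO2 and a Mettl3 control were also cultured for 48 h and were taken without the drug. Each of these 9 groups had 2 libraries, and all cells grew in serum medium with LIF, CHIR99021 and PD0325901. How the knockouts were made, and whether KO1 and KO2 are each 1 clone, is not given in the sources used here.

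Basement membranes are thin sheets of extracellular matrix on which epithelia sit. Laminin forms as a trimer of an alpha, a beta and a gamma chain that polymerises at the cell surface, and collagen IV forms a second, crosslinked network. Primitive endoderm secretes large amounts of both, under the transcription factors GATA6 and SOX17, while embryonic stem cells in culture also make laminin and collagen IV. Inhibitors of the MEK kinases, such as PD0325901, are known to hold back primitive endoderm.

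Among the members, the matrix genes were abundant in these libraries and the endoderm genes had few reads. Across the 18 libraries Gata6 had 0 to 23 reads and Sox17 2 to 22, while Dab2 had 10 to 309. The matrix genes ranged from 116 reads for Col4a2 to 55261 for Lamc1. Of 27 other primitive endoderm genes, the transcription factor genes Gata4, Sox7 and Foxa2 reached at most 5.06, 1.76 and 0.340 CPM (reads of the gene per 1000000 gene reads, after scaling between libraries), and the secreted products Afp and Ttr at most 1.02 and 0.260 CPM. Other genes of this list were higher. Apoe and Lrp2, which other cells also use, reached 1813 and 289 CPM, and Lrpap1 reached 624 CPM. Krt8, Fst, Krt18 and Cited1 reached 58.8, 37.5, 27.1 and 26.5 CPM. All 13 naive stem cell genes listed had reads in every library, and levels differed among them: Nanog was at 246 to 715 CPM and Pou5f1 at 166 to 478 CPM, while the lowest values of Zfp42, Klf4, Klf2 and Prdm14 were 20.8, 19.5, 17.9 and 16.1 CPM. Of these 13 genes, cKO had 3 higher and 7 lower before the drug (0 and 10 with spike-ins), and their sum was 3579 to 3586 CPM in cKO and 3977 to 4024 CPM in control. Over all 17900 genes tested, 2425 were higher and 2831 lower (790 and 7571 with spike-ins). The part of the 13 genes in the results below was not tested.

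Some libraries stood apart. Gene reads ran from 4950973 to 30989044, the lowest in cKO 6 h replicate 1. Spike-in RNA, added at a fixed volume, gave 277 and 272 reads per 1000000 gene reads in the cKO 3 h libraries, against 1098 and 1103 in control 3 h, and 358 to 1889 in the remaining 14. Values scaled to spike-ins therefore shift all genes of the cKO 3 h group together: the median of all genes at 3 h was 2.00 higher on the log2 scale. The targeted gene did not bear out every label. Ythdc1 averaged 132 ± 16.1 CPM in cKO and 138 ± 9.30 CPM in control at 0 h (SD, n = 2 each), a log2 difference of -0.07 ± 0.079 (SE, edgeR adjusted p = 0.557). Counts over a whole gene cannot show whether part of it was removed. At 3 h and 6 h Ythdc1 was lower in cKO, at log2 differences of -1.78 and -1.38. Mettl3 averaged 31.9 ± 0.955 CPM in KO1 and 34.2 ± 3.31 CPM in its control, and 22.4 ± 0.434 CPM in KO2. Groups are therefore named below as the libraries are labelled.

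The collagen IV genes are printed first, because they share 1 promoter region and their group means ran close together (Pearson r of 0.992 over 9 groups). Col4a1 lies on chromosome 8 at 11198423 to 11312826 on the minus strand, and Col4a2 at 11312805 to 11449287 on the plus strand (mm10, GENCODE M21). Their 5′ ends point away from each other and overlap by 22 bases of exon. The RefSeq windows from 250 bases before to 50 after each start (GRCm38.p6) are chr8:11312777-11313076 for Col4a1 and chr8:11312555-11312854 for Col4a2. The 78 bases in capitals belong to both windows, each read on its own strand, and the starts are 21 bases apart. Lamb1 follows for contrast (chr12:31265043-31265342, plus strand); its capitals mark 1 match to the CCAAT box and 2 to the GC box, which lie on its other strand.
Col4a1: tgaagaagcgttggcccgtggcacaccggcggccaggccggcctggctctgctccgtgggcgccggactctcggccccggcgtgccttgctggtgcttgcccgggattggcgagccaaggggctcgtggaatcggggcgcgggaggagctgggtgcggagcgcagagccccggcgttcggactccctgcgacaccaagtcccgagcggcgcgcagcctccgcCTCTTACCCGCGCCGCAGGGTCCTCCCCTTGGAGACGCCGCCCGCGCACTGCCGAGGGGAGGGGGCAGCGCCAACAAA
Col4a2: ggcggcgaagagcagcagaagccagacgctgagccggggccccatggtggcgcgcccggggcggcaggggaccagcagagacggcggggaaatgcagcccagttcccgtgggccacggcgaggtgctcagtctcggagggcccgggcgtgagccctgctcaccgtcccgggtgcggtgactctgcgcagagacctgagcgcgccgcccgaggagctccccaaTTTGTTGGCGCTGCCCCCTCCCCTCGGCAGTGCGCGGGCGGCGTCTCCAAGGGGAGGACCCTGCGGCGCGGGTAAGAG
Lamb1: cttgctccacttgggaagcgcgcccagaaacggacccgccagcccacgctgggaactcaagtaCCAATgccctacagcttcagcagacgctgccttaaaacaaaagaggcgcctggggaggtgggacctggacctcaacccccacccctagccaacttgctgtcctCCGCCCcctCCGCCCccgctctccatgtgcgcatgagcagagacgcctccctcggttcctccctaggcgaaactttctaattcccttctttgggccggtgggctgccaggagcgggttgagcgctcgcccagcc

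The Col4a1 and Col4a2 windows were rich in G and C, at 74.0% and 73.7%, against 63.7% for Lamb1 and a median of 52.7% over 32851 RefSeq promoter windows. Both strands were searched for GATAA (a core bound by GATA factors), for ACAAT (bound by SOX factors), for the CCAAT box, for the GC box GGGCGG (bound by SP factors) and for TGANTCA (bound by AP-1). The Col4a1 window held 1 CCAAT box and 1 GC box, the Col4a2 window 1 and 3, and the Lamb1 window 1 and 2. The GATA, SOX and AP-1 cores were in none of these 3 windows. Of all windows, 25.4% held GATAA, 31.0% ACAAT, 37.4% CCAAT, 35.7% GGGCGG and 7.81% TGANTCA. Windows were found for 5 members; of the further 2, Sparc held none of these motifs and 1 of 2 Dab2 windows held GATAA 2 times.

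The other members lie apart in the genome (mm10, GENCODE M21). Lama1 spans chromosome 17 from 67697259 to 67822647 on the plus strand in 64 exon blocks, Lamb1 chromosome 12 from 31265234 to 31329644 on the plus strand in 33, and Lamc1 chromosome 1 from 153218922 to 153332786 on the minus strand in 28. Sparc spans chromosome 11 from 55394500 to 55423183 on the minus strand in 12 exon blocks, Sox17 chromosome 1 from 4490931 to 4497354 on the minus strand in 4, and Dab2 chromosome 15 from 6299788 to 6440712 on the plus strand in 22. The genes that overlap exons of Sox17 and Dab2 had at most 2 reads in any library.

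**Figure D1:**
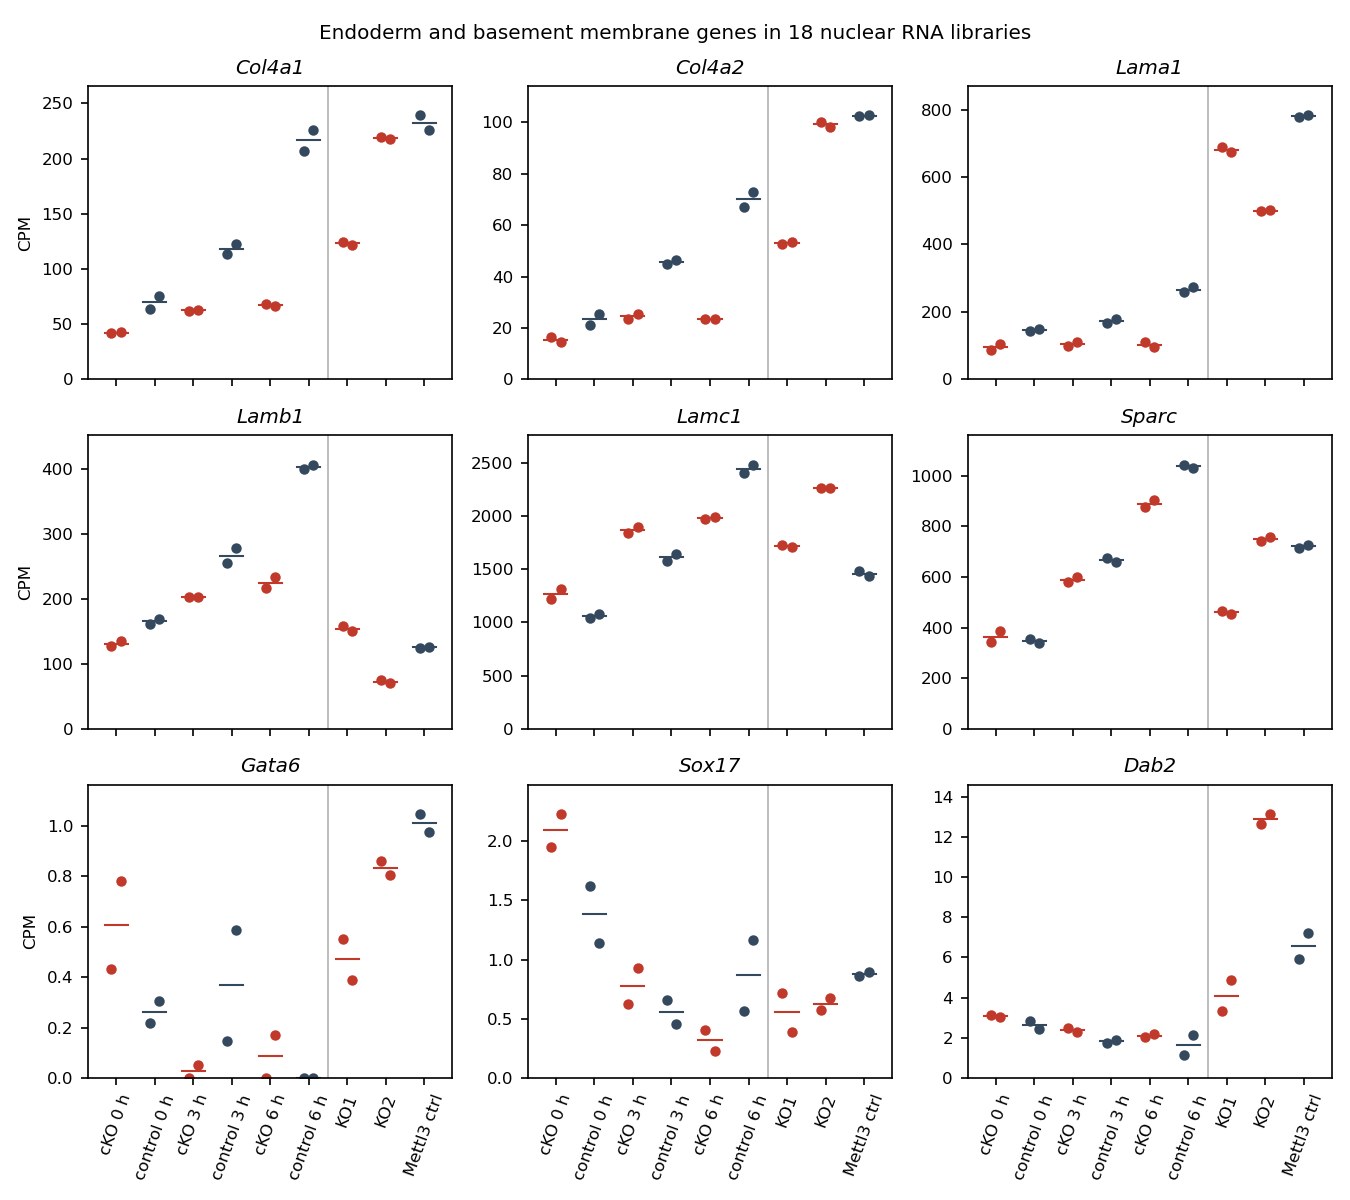
Level of each of the 9 genes in every library, in CPM on a linear axis from 0 with its own scale per gene. Points are libraries, horizontal lines are means of 2, red marks libraries labelled cKO or KO and dark blue marks controls. The grey line separates the Ythdc1 experiment from the Mettl3 experiment, which were scaled apart. Col4a1, Col4a2 and Lama1 stayed below 111 CPM in every cKO library, while their controls climbed with time in the drug.

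Levels are compared between genes only per length, as CPM per kb of exon. In the libraries labelled cKO the order was Lamc1, Sparc, Lamb1, Lama1, Col4a1 and Col4a2 at each of 0, 3 and 6 h. At 0 h Lamc1 averaged 153 ± 8.09 and Col4a2 2.32 ± 0.211 CPM per kb (SD, n = 2). The Ythdc1 control had the same order at 0 and 3 h, from 128 ± 2.83 for Lamc1 to 3.53 ± 0.443 for Col4a2 at 0 h. At 6 h in the control, Col4a1 and Lama1 were neighbours whose libraries overlapped, at 29.0 ± 1.78 and 27.4 ± 1.10 CPM per kb. The other neighbours among the 6 matrix genes did not overlap in these groups. Dab2, Sox17 and Gata6 stayed below 0.5 CPM per kb in all of them.

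The Mettl3 lines had another order. In KO1 it ran Lamc1, Sparc, Lama1, Col4a1, Lamb1 and Col4a2, and in KO2 Lamc1, Sparc, Lama1, Col4a1, Col4a2 and Lamb1. The Mettl3 control had Sparc first, at 190.5 ± 1.91 CPM per kb, and then Lamc1, at 176 ± 3.80. Lamb1 was the sixth in KO2 and in the control, at 7.31 ± 0.342 and 12.6 ± 0.098 CPM per kb. Neighbouring matrix genes did not overlap in any of the 3 groups.

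Before the drug, 4 of the 8 members tested were lower and 1 was higher in the libraries labelled cKO than in control. Col4a1 fell to 41.7 and 42.9 CPM in cKO, against 63.7 and 75.7 CPM in control, and its libraries did not overlap (log2 -0.73 ± 0.084, SE, edgeR adjusted p = 1.07e-08). Col4a2 was at 16.4 and 14.4 CPM in cKO, against 21.3 and 25.5 CPM in control (log2 -0.62 ± 0.12, edgeR adjusted p = 0.000173). Both collagen IV chains were thus lower, by factors of 1.65 and 1.53. The laminin alpha chain gene Lama1 had 87.7 and 105 CPM in cKO and 142 and 148 CPM in control (log2 -0.59 ± 0.078, edgeR adjusted p = 3.12e-07). The beta chain gene Lamb1 had 127 and 134.5 CPM in cKO and 161 and 169.8 CPM in control (log2 -0.34 ± 0.062, edgeR adjusted p = 4.77e-05).

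The gamma chain gene Lamc1 went the other way, with 1221 and 1316 CPM in cKO and 1046 and 1079 CPM in control (log2 0.26 ± 0.042, edgeR adjusted p = 7.68e-06). Scaled to spike-ins its sign turned, to -0.11 with adjusted p = 0.0833, while the median of all genes was at -0.35. Sparc, with 344 and 385 CPM in cKO and 354 and 339 CPM in control, did not pass the test (adjusted p = 0.308), although without cKO 0 h replicate 1 it did, at log2 0.15 (edgeR adjusted p = 0.031). Scaled to spike-ins Sparc was at -0.29. Over all 17900 genes, 29.4% were called at 0 h, 13.5% higher and 15.8% lower, against 5 of the 8 members.

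For Sox17 and Dab2 a difference of the size seen in the collagens was not detectable at this depth. Sox17 had 18 and 20 reads in cKO and 15 and 15 in control, and Dab2 29 and 27 reads in cKO and 26 and 32 in control. Their log2 differences were 0.62 ± 0.49 and 0.24 ± 0.34. Gata6 had 4 and 7 reads in cKO and 2 and 4 in control, and was not tested.

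After 3 h of actinomycin D, 5 of 8 members were lower and 1 higher in cKO, with 43% of all genes called (22.3% higher, 20.7% lower). Col4a1 had 62.0 and 63.1 CPM in cKO and 113 and 122 CPM in control (log2 -0.91 ± 0.074). Lama1 had 99.7 and 110.4 CPM in cKO and 166 and 177 CPM in control (log2 -0.71 ± 0.074). Lamc1 was again higher in cKO, at 1840.1 and 1895 CPM against 1579 and 1648 CPM in control (log2 0.21 ± 0.041). In all 3 genes the cKO and control libraries lay apart. The fit put Col4a2 and Lamb1 at -0.90 ± 0.097 and -0.40 ± 0.059. Sparc was lower, at -0.18 ± 0.050 (edgeR adjusted p = 0.00334), a call that was lost without cKO 3 h replicate 1 (adjusted p = 0.0769). Scaled to spike-ins all 8 members were higher in cKO at 3 h, from 1.08 for Col4a1 to 2.48 for Sox17. Against the shift of 2.00 in all genes, Col4a1 stood at -0.92, Col4a2 at -0.91, Lama1 at -0.71, Lamb1 at -0.40, Lamc1 at 0.20 and Sparc at -0.19. Sox17 had 9 and 18 reads in cKO and 9 and 7 in control, Dab2 36 and 44 in cKO and 24 and 29 in control, and Gata6 0 and 1 in cKO and 2 and 9 in control, and none of the 3 was called with TMM.

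After 6 h the difference was at its widest, with all 6 matrix genes lower in cKO and no member higher. Col4a1 had 68.2 and 66.6 CPM in cKO and 207 and 226 CPM in control, a factor of 3.22 (log2 -1.69 ± 0.077, edgeR adjusted p = 1.9e-19). Col4a2 had 23.6 and 23.4 CPM in cKO and 67.1 and 73.0 CPM in control, a factor of 2.98 (log2 -1.58 ± 0.11). Lama1 had 109 and 95.5 CPM in cKO and 257 and 273 CPM in control, a factor of 2.61 (log2 -1.39 ± 0.078). These 3 genes kept every cKO library below every control library by a wide margin. Lamb1 had 217 and 233 CPM in cKO and 400.4 and 407 CPM in control (log2 -0.84 ± 0.060). Lamc1, which had been higher in cKO at 0 and 3 h, was now lower, at 1972 and 1993 CPM in cKO and 2410.2 and 2487 CPM in control (log2 -0.30 ± 0.041, edgeR adjusted p = 1.39e-07).

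Sparc was lower by a small amount at 6 h, with 878 and 903 CPM in cKO and 1045 and 1033 CPM in control (log2 -0.22 ± 0.050, edgeR adjusted p = 0.000386). That call was lost with library size alone (adjusted p = 0.0716) and without the expression filter (0.124). Scaled to spike-ins all 6 matrix genes were lower in cKO at 6 h, from -2.11 for Col4a1 to -0.64 for Sparc, with the median of all genes at -0.44. Over all genes 42.4% were called at 6 h, 19.7% higher and 22.7% lower, and the median over the 8 members was -1.11 against -0.02 over all genes. Sox17 had 2 and 4 reads in cKO and 5 and 13 in control and did not pass (adjusted p = 0.0637), but passed without control 6 h replicate 1 (log2 -2.06, edgeR adjusted p = 0.0303) and on the spike-in scale (-2.05, edgeR adjusted p = 0.0149). Gata6 had 0 and 3 reads in cKO and 0 and 0 in control; a count of 0 there allows up to 0.338 and 0.270 CPM, counting error only.

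**Figure D2:**
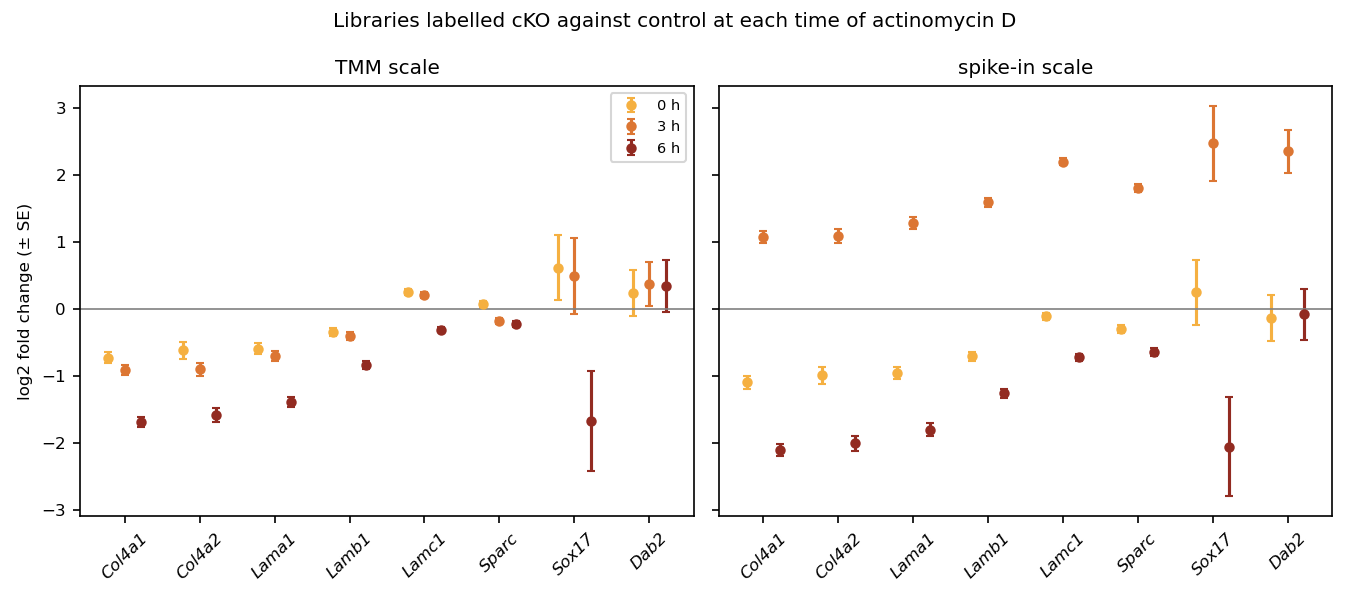
Log2 fold change of libraries labelled cKO over control at 0, 3 and 6 h of actinomycin D, with bars of 1 SE from edgeR (2 libraries per group). The left panel is scaled by TMM, the right panel by spike-in reads. On the left Col4a1 goes through -0.73, -0.91 and -1.69, and Lamc1 through 0.26, 0.21 and -0.30; on the right all genes at 3 h lie above 0.

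CPM are relative to all other RNA of a library, so a rise in CPM is a rise relative to the rest. In bulk samples, fewer cells and less RNA per cell cannot be told apart. In the libraries labelled cKO, Col4a1 had means of 42.3, 62.6 and 67.4 CPM at 0, 3 and 6 h, and in the control 69.7, 118 and 217 CPM. Lama1 was at 96.2, 105 and 102.5 CPM in cKO, and went through 145, 172 and 265 CPM in the control. Lamc1 went through 1269, 1868 and 1982 CPM in cKO and 1063, 1614 and 2448 CPM in the control.

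From 0 h to 6 h, 5 of 8 members rose and 1 fell in cKO, and 6 rose and none fell in control. Over all genes 60.9% were called in cKO (29.6% higher, 31.3% lower) and 64.8% in control (33.1% higher, 31.7% lower), so that a call in itself was common. The share of reads outside annotated genes was lower the longer the drug was present. Before the drug it was 52.3% and 53.5% in cKO, against 49.7% and 50.1% in control. After 3 h it was 23.2% and 23.3% in cKO, against 23.1% and 24.5% in control, and after 6 h 18.02% and 18.29% in cKO, against 21.004% and 21.05% in control. The part of this shift in the changes of the members was not tested. Col4a1 rose by 0.67 ± 0.085 in cKO and by 1.63 ± 0.076 in control on the log2 scale, and Col4a2 by 0.61 ± 0.13 and 1.57 ± 0.10. Lamb1 rose by 0.79 ± 0.062 in cKO and 1.29 ± 0.061 in control, and Lamc1 by 0.64 ± 0.042 and 1.20 ± 0.042. Sparc rose by 1.29 ± 0.051 in cKO and 1.58 ± 0.051 in control, the nearest pair among the 6.

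Lama1 was the matrix gene whose cKO value did not pass, at 0.08 ± 0.080 (edgeR adjusted p = 0.416), against 0.87 ± 0.075 in control. That value depended on the 0 h libraries: without cKO 0 h replicate 2 it was 0.20 (edgeR adjusted p = 0.0377), and without replicate 1 it was -0.04. Sox17 fell in cKO, with 2 and 4 reads at 6 h against 18 and 20 at 0 h (log2 -2.89 ± 0.66, edgeR adjusted p = 0.000211). In control Sox17 had 5 and 13 reads at 6 h against 15 and 15 at 0 h, which did not pass. Dab2 did not pass in either, at -0.52 ± 0.36 in cKO and -0.63 ± 0.37 in control; without control 6 h replicate 2 the control value was -1.20 (edgeR adjusted p = 0.0352), and with library size alone -0.82 (0.0485).

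The spike-in scale, on which levels are relative to added RNA, gave other signs for these changes. The median of all genes from 0 to 6 h was -0.96 in cKO and -0.88 in control on that scale. Col4a1 was at -0.30 in cKO and 0.71 in control, Col4a2 at -0.36 and 0.65, and Lamb1 at -0.19 and 0.37. Lamc1 was at -0.33 in cKO and 0.29 in control, and Lama1 at -0.89 and -0.05. Sparc stayed positive in both, at 0.32 in cKO and 0.67 in control. Col4a1, Col4a2, Lamb1 and Lamc1 thus fell in cKO and rose in control on this scale, all 8 values passing the edgeR test at adjusted p of 0.0172 or less. That test takes the spike-in scale of each library as known, so errors in the scale are left out. Spike-scaled means of Col4a1 at 0, 3 and 6 h were 43.9, 231 and 35.7 in cKO and 93.3, 109 and 153 in control. For Lamc1 they were 1316, 6891 and 1050 in cKO and 1420, 1498 and 1732 in control. Sox17 and Dab2 passed downward in both groups, at -3.82 and -1.49 in cKO and -1.51 and -1.54 in control.

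**Figure D3:**
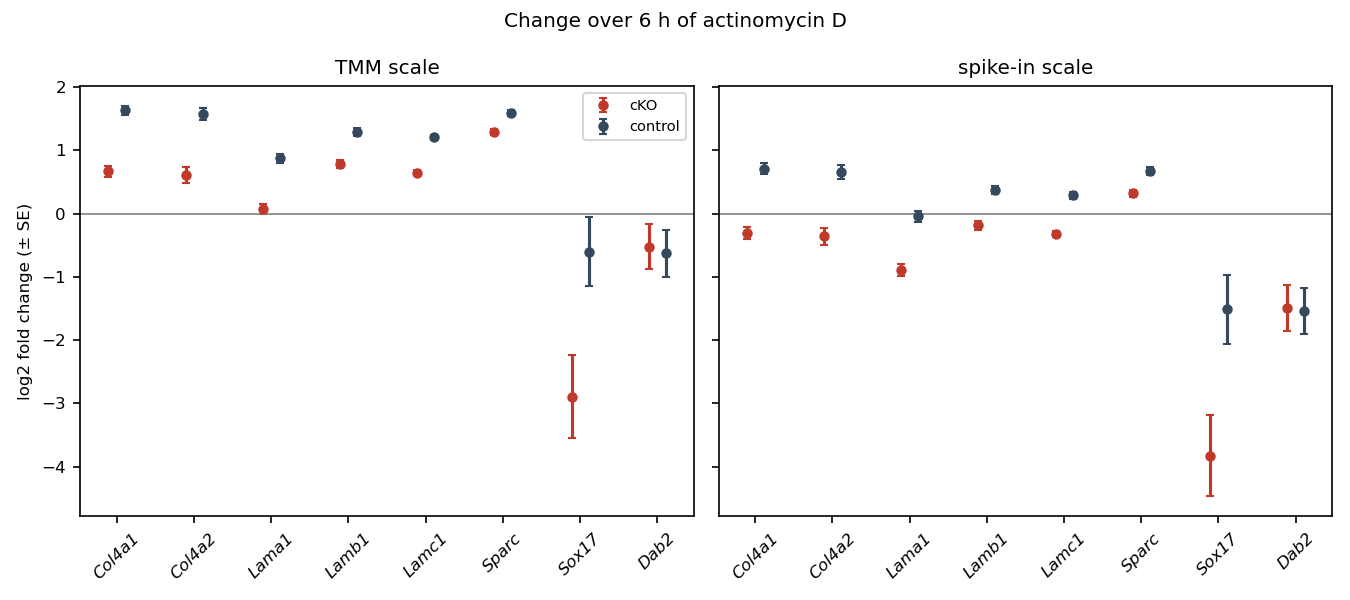
Log2 change from 0 h to 6 h of actinomycin D in libraries labelled cKO (red) and control (dark blue), with bars of 1 SE from edgeR, 2 libraries per group. On the TMM scale (left) Col4a1 is at 0.67 in cKO and 1.63 in control; on the spike-in scale (right) it is at -0.30 and 0.71, on either side of 0.

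The difference between these 2 changes was tested in the fit itself. All 6 matrix genes had a smaller 6 h change in cKO than in control, where 19.1% of all genes were called, 9.77% higher and 9.35% lower. The difference was -0.96 ± 0.11 for Col4a1 (edgeR adjusted p = 5.7e-08) and -0.96 ± 0.16 for Col4a2 (3.52e-05). It was -0.79 ± 0.11 for Lama1 (edgeR adjusted p = 1.83e-06), -0.56 ± 0.059 for Lamc1 (4.38e-09) and -0.50 ± 0.086 for Lamb1 (3.77e-05). Sparc had the smallest, -0.29 ± 0.071 (edgeR adjusted p = 0.00246), which was lost with library size alone (0.14) and without the expression filter (0.336). The spike-in scale gave 6 calls in the same direction, from -1.01 for Col4a1 and Col4a2 to -0.35 for Sparc, with the median of all genes at -0.09. Sox17 was at -2.29 ± 0.89 (edgeR adjusted p = 0.063), or -2.68 (0.0305) without control 6 h replicate 1, and Dab2 at 0.10 ± 0.52.

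Other basement membrane genes had the same sign. Of 30 tested, 17 had a smaller 6 h change in cKO and none a larger one, with a median of -0.56 against -0.03 over all genes. Both counts were the same on the spike-in scale (0 and 17), and were 0 and 14 with library size alone and 0 and 11 without the expression filter. The endostatin-bearing collagen gene Col18a1 was at -0.69 ± 0.079, the perlecan gene Hspg2 at -0.98 ± 0.093 and the agrin gene Agrn at -0.56 ± 0.080. Hspg2 averaged 1184 CPM in cKO and 2019 CPM in control at 6 h, and 1082 CPM in cKO and 938 CPM in control at 0 h. All 3 are heparan sulfate proteoglycans of basement membranes. Before the drug the list was mixed, with 10 of 30 higher and 4 lower in cKO, Agrn among the lower at 295 CPM against 558 CPM in control. The 4 matrix members that were lower in cKO at 0 h thus stood against a list median of 0.36 (-0.01 on the spike-in scale, where 4 were higher and 9 lower). Over all 17900 genes that scale gave 790 higher and 7571 lower at 0 h.

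Receptor genes gave calls in 1 direction and secretion genes in both. Of 13 matrix receptor genes tested, 6 had a smaller 6 h change in cKO and none a larger one, and with library size alone 6 and 2. The dystroglycan gene Dag1, a laminin receptor, was at -0.45 ± 0.069, the laminin alpha chain receptor gene Bcam at -0.50 ± 0.10 and the talin gene Tln1, which links integrins to actin, at -0.69 ± 0.081. Of 16 genes that fold, modify or export collagen and laminin, 5 had a smaller and 2 a larger change. The collagen chaperone gene Serpinh1 was at -0.49 ± 0.10 and the prolyl hydroxylase gene P3h1 at -0.58 ± 0.10. Plod2, a lysyl hydroxylase of collagen, was higher in cKO at 0, 3 and 6 h, by 0.82, 1.17 and 1.27.

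Other primitive endoderm genes were called at a share near that of all genes. Of 19 other primitive endoderm genes tested, 2 had a smaller 6 h change in cKO and none a larger one, with a median of -0.07 against -0.03 over all genes, where 9.35% were called smaller. The 2 were Lrp2, the megalin gene (-0.93 ± 0.095), and Apoe, the lipid carrier gene (-0.49 ± 0.067). Apoe was higher in cKO at 0 h, at 625 CPM against 205 CPM in control (log2 1.61 ± 0.049), and Lrp2 at 140 CPM against 97.4 CPM (0.52 ± 0.067). The 27 genes summed to 1070 to 1123 CPM in cKO and 610.5 to 630.5 CPM in control at 0 h, and to 2294 to 2392 CPM in cKO and 1430 to 1458 CPM in control at 6 h, of which Apoe averaged 625 CPM in cKO and 205 CPM in control at 0 h, and 1760 CPM in cKO and 812 CPM in control at 6 h; 2 to 5 of them were at 0 reads in each of these libraries. The part of these genes in the matrix result was not tested.

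Fibroblast feeder markers also differed between cKO and control. Of 10 tested, 4 were higher and none lower in cKO at 0 h, where 4 matrix members were lower, and 1 was higher and 4 lower at 3 h and again at 6 h (3 and 3, 10 and 0, and 1 and 5 with spike-ins). The summed level of 16 such genes was 3210 to 3373 CPM in cKO and 2512 to 2652 CPM in control at 0 h, 2816 to 2899 CPM in cKO and 4262 to 4415 CPM in control at 3 h, and 4151 to 4317 CPM in cKO and 5050 to 5098 CPM in control at 6 h. Fn1, the fibronectin gene, which stem cells also express, alone gave 2420 to 5052 CPM over the 18 libraries. In this list Dcn, Lum and S100a4 reached at most 0.582, 0.224 and 0.112 CPM and were at 0 reads in 8, 10 and 13 of 18 libraries. Other fibroblast genes of the list reached more. Col1a1, Col1a2, Acta2 and Col3a1 reached 274, 190, 97.7 and 30.6 CPM, and Postn and Prrx1 8.94 and 5.17 CPM. For the difference in 6 h change 4 of 10 tested were lower and none higher, among them Fn1 at -0.61 ± 0.052 and the fibrillar collagen gene Col5a1 at -0.95 ± 0.15. Their part in the matrix result was not tested.

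KO1 and KO2 differed from control in different members. In KO1, 5 of 9 members were lower and 2 higher than in control, with 46.1% of all 21802 genes called (23.9% higher, 22.2% lower). In KO2, 3 were lower and 2 higher, with 50.8% of all genes called (24.4% higher, 26.4% lower). KO1 and KO2 share their control libraries, so their values are set side by side.

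The collagen IV genes were lower in KO1. Col4a1 had 125 and 122 CPM in KO1, 219.5 and 217 CPM in KO2, and 239 and 226 CPM in control. The KO1 value was -0.91 ± 0.039 (edgeR adjusted p = 5.27e-34) and the KO2 value -0.09 ± 0.038 (0.0431). The KO2 call was lost with DESeq2 size factors (adjusted p = 0.151), with the DESeq2 Wald test (0.274), under both other filters (0.205 and 0.113) and without control replicate 1 (0.319) or either KO2 library (0.128 and 0.244), and its sign turned on the spike-in scale (0.47). Col4a2 had 52.5 and 53.4 CPM in KO1, 100.15 and 98.3 CPM in KO2, and 102.4 and 103 CPM in control (log2 -0.95 ± 0.051 in KO1 and -0.05 ± 0.049 in KO2). The KO2 value of Col4a2 passed with library size alone (-0.11, edgeR adjusted p = 0.045) and was 0.52 with spike-ins.

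Laminin chains went different ways in each line. Lama1 had 687 and 673 CPM in KO1, 499 and 501 CPM in KO2, and 777 and 783 CPM in control (log2 -0.20 ± 0.029 in KO1 and -0.64 ± 0.030 in KO2). Scaled to spike-ins these were -0.01 (edgeR adjusted p = 0.777) and -0.08 (0.0394), with the median of all genes at 0.17 and 0.53. Lamb1 had 158 and 151 CPM in KO1, 74.9 and 70.1 CPM in KO2, and 125 and 126 CPM in control. It was thus higher in KO1 (0.30 ± 0.044) and lower in KO2 (-0.79 ± 0.047), and kept both signs with spike-ins (0.49 and -0.23). Lamc1 was higher in both, at 1728 and 1711 CPM in KO1 and 2265.5 and 2267 CPM in KO2, against 1482 and 1437.5 CPM in control (0.24 ± 0.025 and 0.63 ± 0.025). Its spike-in values were 0.42 and 1.20.

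Sparc and Dab2 were lower in KO1. Sparc had 466 and 455 CPM in KO1, 742 and 759.8 CPM in KO2, and 716 and 727 CPM in control (log2 -0.65 ± 0.030 in KO1; 0.06 ± 0.030 in KO2, edgeR adjusted p = 0.0963). The KO2 value of Sparc passed with DESeq2 size factors (0.0158), the DESeq2 Wald test (0.0262), the stricter filter (0.013), without control replicate 2 (0.0453) and with spike-ins (0.62), and was -0.01 with library size alone. Dab2 had 3.32 and 4.85 CPM in KO1, 12.7 and 13.2 CPM in KO2, and 5.91 and 7.22 CPM in control. It was lower in KO1 (-0.71 ± 0.17, edgeR adjusted p = 0.000272) and higher in KO2 (0.97 ± 0.15, 3.68e-08), but the KO1 call was lost without KO1 replicate 1 (-0.44, adjusted p = 0.0722). DAB2 is an endocytic adaptor and a common marker of primitive endoderm.

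The endoderm regulators gave no call in either line with TMM. Gata6 had 17 and 9 reads in KO1, 21 and 18 in KO2, and 22 and 23 in control (log2 -1.07 ± 0.49 in KO1, edgeR adjusted p = 0.0611; with library size alone -1.12, 0.0489). Sox17 had 22 and 9 reads in KO1, 14 and 15 in KO2, and 18 and 21 in control. The KO2 values of both, -0.28 and -0.49, turned positive with spike-ins, at 0.28 and 0.07. Of 23 other primitive endoderm genes tested, none was higher and 8 were lower in KO1, and 3 were higher and 8 lower in KO2 (2 and 8, and 9 and 4, with spike-ins). Over all 21802 genes spike-ins gave 7585 higher and 2985 lower in KO1, and 12359 and 1458 in KO2. Lrp2 was among the lower in KO1, at 87.7 CPM against 285 CPM in control, and Apoe in KO2, at 668 CPM against 1441 CPM.

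**Figure D4:**
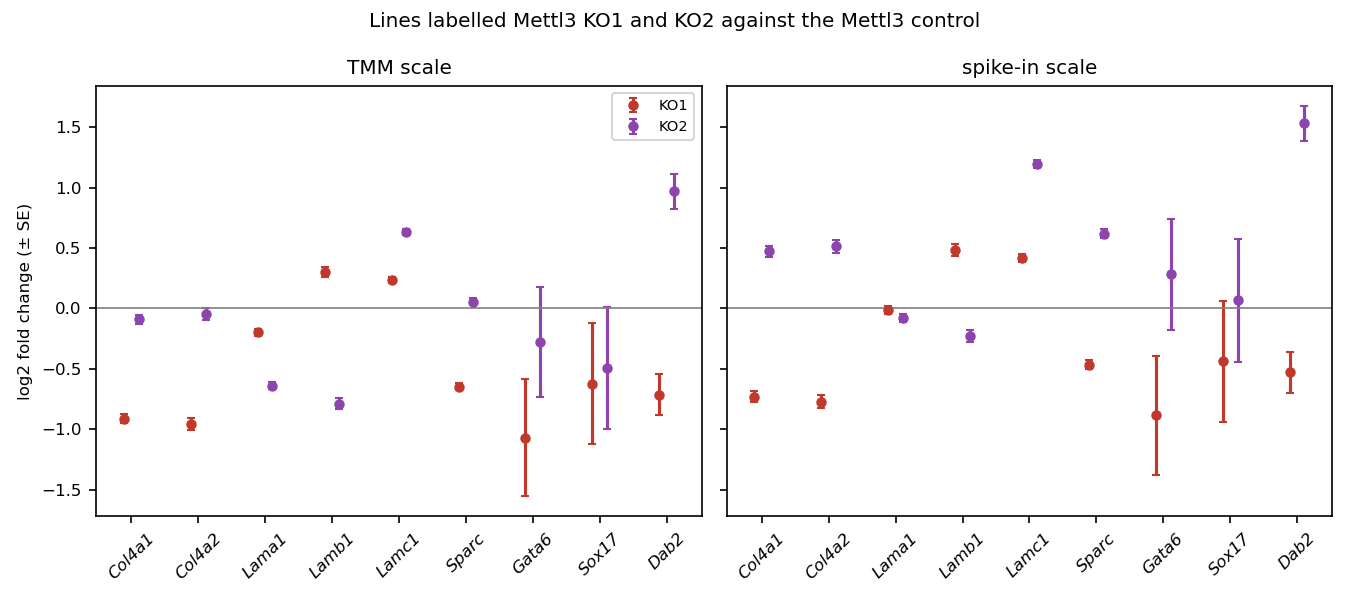
Log2 fold change of the lines labelled Mettl3 KO1 (red) and KO2 (purple) over the Mettl3 control, with bars of 1 SE from edgeR, 2 libraries per group, scaled by TMM (left) and by spike-in reads (right). On the left Lamb1 is at 0.30 in KO1 and -0.79 in KO2, and Dab2 at -0.71 in KO1 and 0.97 in KO2.

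Set directly against each other, KO1 and KO2 differed in 7 of 9 members, 5 lower and 2 higher in KO1, with 46.1% of all genes called (24.5% higher, 21.6% lower). Col4a1 was at -0.82 ± 0.039, Col4a2 at -0.91 ± 0.051, Sparc at -0.71 ± 0.030, Lamc1 at -0.40 ± 0.025 and Dab2 at -1.68 ± 0.16 in KO1 relative to KO2. Lamb1 was at 1.09 ± 0.046 and Lama1 at 0.44 ± 0.030. With spike-ins the Lama1 difference was 0.06 (edgeR adjusted p = 0.0994), Gata6 passed at -1.17 (0.0368), and the remaining 6 calls kept their sign.

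Other basement membrane genes were called in both directions in each line. Of 32 tested, 12 were higher and 8 lower in KO1, and 15 higher and 8 lower in KO2. Between the lines, 6 were higher and 14 lower in KO1 than in KO2 (4 and 20 with spike-ins). Over all genes spike-ins gave 1663 higher and 10483 lower there. Col18a1 was higher in both, at 537 CPM in KO1 and 754 CPM in KO2 against 314 CPM in control. The laminin alpha chain gene Lama5 was higher in KO2, at 1714 CPM against 926 CPM in control (0.89 ± 0.028), and at 957 CPM in KO1 did not pass. Bcam was lower in both lines, at 316 CPM in KO1 and 190 CPM in KO2 against 460.3 CPM in control. With spike-ins the basement membrane counts were 17 higher and 8 lower in KO1, and 17 and 4 in KO2. Counts over all 21802 genes on that scale were 7585 and 2985 in KO1, and 12359 and 1458 in KO2.

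The sum of the feeder markers was higher beside these values. Most of it was Fn1, and further genes of the list were called higher too. The 16 genes summed to 5062 and 5103 CPM in KO1 and 5854 and 6030 CPM in KO2, against 3309 and 3350 CPM in control. Of 12 tested, 5 were higher and 1 lower in KO1, and 9 were higher and none lower in KO2 (8 and 0, and 10 and 0, with spike-ins). Their median log2 value was 0.34 in KO1 and 1.09 in KO2, against -0.01 and -0.03 over all genes. With spike-ins all 21802 genes gave 7585 higher and 2985 lower in KO1, and 12359 and 1458 in KO2. Fn1 averaged 4595 CPM in KO1 and 4966 CPM in KO2 against 2895 CPM in control, and the collagen I gene Col1a1 96.2 and 272 CPM against 103 CPM. The smooth muscle actin gene Acta2 averaged 29.4 CPM in KO1 and 94.9 CPM in KO2 against 16.5 CPM. The 13 naive stem cell genes summed to 5132 to 5154 CPM in KO1 and 3559 to 3590 CPM in KO2, against 4008 to 4066 CPM in control. Of these, 9 were higher and 3 lower in KO1, and 2 higher and 9 lower in KO2, where spike-ins turned the counts to 9 higher and 4 lower (10 and 3 in KO1). The 9 definitive endoderm genes summed to 436 CPM in both KO1 libraries and 84.4 to 85.3 CPM in KO2, against 88.1 to 88.3 CPM in control. Most of that sum in KO1 was Trh, the thyrotropin-releasing hormone gene, at 408.5 CPM against 67.9 CPM in control (log2 2.59 ± 0.041), and the transcription factor gene Eomes was also higher in KO1 (1.32 ± 0.12). The part of any of these genes in the values of Col4a1, Col4a2 and the laminins was not tested.

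Ratios between genes inside 1 library need no scaling between libraries. The ratio of Lamc1 to Lamb1 reads was 8.54 to 9.78 in the 6 cKO libraries and 5.92 to 6.51 in the 6 Ythdc1 control libraries, without overlap. It was 10.9 and 11.3 in KO1, 30.3 and 32.4 in KO2, and 11.9 and 11.4 in the Mettl3 control. The gamma to beta ratio was thus highest in KO2, and higher in every cKO than in every Ythdc1 control library. Lamc1 to Lama1 was 12.6 to 20.9 in cKO and 7.30 to 9.51 in the Ythdc1 control, and 2.51 and 2.54 in KO1, 4.54 and 4.53 in KO2, and 1.91 and 1.84 in the Mettl3 control.

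The alpha to beta ratio separated the experiments. Lama1 to Lamb1 was 0.409 to 0.779 in cKO and 0.638 to 0.882 in the Ythdc1 control, but 4.36 and 4.46 in KO1, 6.67 and 7.15 in KO2, and 6.24 and 6.21 in the Mettl3 control. Experiment, cell line and library batch cannot be told apart in that contrast. Col4a1 to Col4a2 also separated them, by less: it was 2.48 to 3.10 in the Ythdc1 experiment and 2.19 to 2.38 in the Mettl3 experiment. Col4a1 itself ran from 41.7 to 239 CPM over all 18 libraries, scaled within each experiment.

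**Figure D5:**
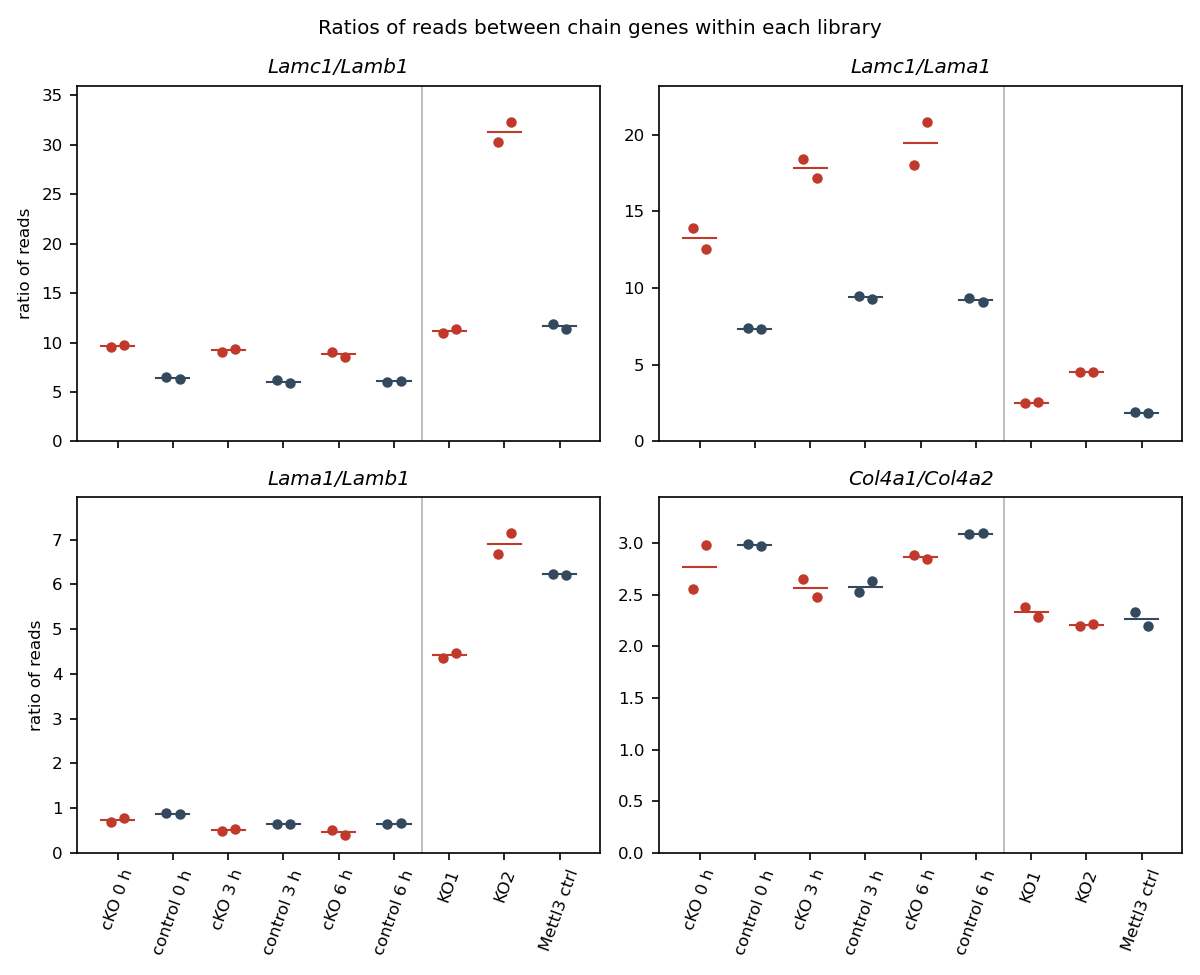
Ratios of reads between chain genes within each library, on linear axes from 0. Points are libraries, horizontal lines are means of 2, red marks libraries labelled cKO or KO and dark blue marks controls. Lamc1/Lamb1 reaches 30.3 and 32.4 in KO2, and Col4a1/Col4a2 stays between 2.19 and 3.10.

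As a description, patterns were compared over the 9 group means of log2(CPM + 0.5), centred within each experiment. Col4a1 and Col4a2 had a Pearson r of 0.992, Lamc1 and Sparc 0.841, Lama1 and Lamb1 0.804, and Lama1 and Lamc1 0.195. Lamb1 and Dab2 ran opposite, at -0.871. These means share libraries, scaling and time in the drug. Among 12466 genes with at least 50 reads on average, those most like the mean of the 5 collagen and laminin chains were Nup188 (0.996), Notch3 (0.994), Crocc (0.992), Supt5 (0.986) and Rps6ka4 (0.982).

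The matrix genes differ in how often their transcripts hold GGACT, the DNA letters of a common m6A sequence context. In the longest annotated transcript it occurred 2.72 times per kb in Col4a1, 2.17 in Col4a2, 1.89 in Lama1, 1.21 in Lamb1, 0.656 in Lamc1 and 0.435 in Sparc, against a median of 1.00 over 19597 coding genes. Over these 6 genes, this is also the order of their differences between cKO and control at 6 h, an order noticed after both were seen. Of the sparse members tested, Sox17 had the highest density, 3.09 per kb. Its -1.67 ± 0.75 at 6 h was close to the -1.69 of Col4a1, with an SE too wide to rank it. Dab2, at 1.72 per kb with 0.34 ± 0.39, did not follow the order. Over 13522 coding genes the Spearman correlation of this density with the same difference was -0.116, and with the difference in 6 h change -0.119. For transcript length these 2 correlations were 0.009 and -0.129. Density correlated at 0.148 with the 6 h change in control itself. In KO1, Lamb1 was higher and Sparc lower, so the order did not hold there (Spearman -0.543 over these 6). Genes are not independent replicates, a match of letters is not a measured m6A site, and no m6A was measured in these files.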

How the data were processed

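Nuclear RNA of mouse embryonic stem cells was measured in 18 libraries. Per the labels' protocols, spike-in RNA (ERCC) was added before removal of ribosomal RNA, and the library kit (SMARTer) keeps the strand. The values that the authors deposited are whole read counts for each gene, not normalized. Among the tools in the submitters' processing notes are HISAT2 2.1.0, HTSeq, Trimmomatic 0.38 and CASAVA, with the build mm10. HTSeq's strand setting and gene model release are not given in those sources. The 22 bases where Col4a1 and Col4a2 overlap are therefore uncertain. So are the members that share exon bases with further genes on the opposite strand (Col4a2, Gata6, Sox17, Dab2).

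The 12 Ythdc1 and 6 Mettl3 libraries were fitted separately with edgeR 4.0.16 (R 4.3.3): TMM, filterByExpr with a minimum count of 10, 1 coefficient per group, and the robust quasi-likelihood test. A gene was called at a Benjamini-Hochberg adjusted p below 0.05, with 17900 and 21802 genes entering the adjustment. The procedure was tested on simulated data. CPM are counts per 1000000 gene reads of the TMM-scaled library. Reads outside annotated genes (18.0% to 53.5% of reads per library) stayed out of library sizes. Depth ran from 4950973 to 30989044 gene reads; intervals and floors (3 reads) cover counting error only. Nothing says that the 2 libraries of a group came from separate cultures, so p-values measure the spread between libraries, which may be technical.

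Gene positions came from GENCODE M21, in which 54409 identifiers were found without their version, and promoters from RefSeq. The members and gene lists were chosen with earlier results of these data known. Named genes were the members, Ythdc1, Mettl3, up to 3 called genes per list and comparison by lowest p, and the 5 genes of most like pattern. Afp, Ttr, Gata4, Sox7, Foxa2, Lrpap1, Krt8, Fst, Krt18, Cited1, Zfp42, Klf4, Klf2, Prdm14, Dcn, Lum and S100a4 were added as markers. So were Col1a2, Col3a1, Postn and Prrx1. Further values of Hspg2, Lama5, Fn1, Col1a1 and Acta2 are given beside their calls. Alternatives were DESeq2 1.42.0 size factors, library size alone, spike-in scaling, the DESeq2 Wald test, testing without an expression filter, requiring 50 reads in 2 libraries, the replicate number as a block and each library left out; leaving out both cKO 3 h libraries was chosen after seeing the data.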

Additional observations from a re-analysis of the deposited data

Results flagged for a closer look

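The change over 6 h of actinomycin D differed between the libraries labelled cKO and the control libraries for 6 members, by a test of the difference itself (edgeR). The difference, cKO minus control on the log2 scale, was -0.96 for Col4a1, -0.96 for Col4a2, -0.79 for Lama1, -0.50 for Lamb1, -0.56 for Lamc1 and -0.29 for Sparc. The 6 h change of each of these genes was smaller in cKO than in control. Between cKO and control, Lamc1 was at 0.26, 0.21 and -0.30 at 0, 3 and 6 h, each of them called, and Sparc was at 0.07, which was not called, and then at -0.18 and -0.22.

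The lines labelled KO1 and KO2 differed from each other in 7 members, by a direct test in the same fit. KO1 relative to KO2 was at -0.82 for Col4a1, -0.91 for Col4a2, 0.44 for Lama1, 1.09 for Lamb1, -0.40 for Lamc1, -0.71 for Sparc and -1.68 for Dab2. For Lamb1 and Dab2 the lines lay on opposite sides of their shared control, Lamb1 at 0.30 in KO1 and -0.79 in KO2, and Dab2 at -0.71 in KO1 and 0.97 in KO2. The targeted gene Mettl3 differed too, at -0.10 in KO1 and -0.61 in KO2. The summed feeder markers, for the most part Fn1, stood at 5062 to 5103 CPM in KO1 and 5854 to 6030 CPM in KO2. The part of either in the members' values was not tested.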

How the results depend on the processing

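The count of members called stayed within 1.5 times its value under each alternative run, for all 9 comparisons. Spike-in scaling turned the most signs. For cKO against control it gave Lamc1 -0.11, Sparc -0.29 and Dab2 -0.13 at 0 h, Col4a1 1.08, Col4a2 1.09, Lama1 1.28, Lamb1 1.60 and Sparc 1.81 at 3 h, and Dab2 -0.0798 at 6 h. From 0 h to 6 h it gave Col4a1 -0.30, Col4a2 -0.36, Lama1 -0.89, Lamb1 -0.19 and Lamc1 -0.33 in cKO and Lama1 -0.0467 in control. For KO2 it gave Col4a1 0.47, Col4a2 0.52, Gata6 0.28 and Sox17 0.0683. The median of all genes moved with it, to -0.35, 2.00 and -0.44 at 0, 3 and 6 h, -0.96 and -0.88 over 6 h in cKO and control, 0.17 in KO1, 0.53 in KO2 and -0.38 between the lines. At 3 h it called 16702 genes higher and 6 lower in cKO, against 3986 and 3709 with TMM. Library size alone put that median at -0.16 from 0 h to 6 h in control, against 0.03 with TMM. For the difference in 6 h change it put it at 0.11, against -0.03 with TMM. There 2945 genes were higher and 990 lower, against 1749 and 1673 with TMM. Sparc in KO2 was at -0.0077 with library size alone. Leaving out 1 library at a time turned the sign of 5 values that had not passed: they ranged from -0.0107 to 0.92 for Dab2 at 6 h, -0.25 to 0.69 for Dab2 in the difference, -0.0437 to 0.20 for Lama1 in cKO from 0 h to 6 h, -0.0184 to 0.15 for Sparc at 0 h and -0.66 to 0.21 for Sox17 between KO1 and KO2. The cause of these changes was not tested. Without both cKO 3 h libraries 40 values in the other comparisons kept sign and call and moved by at most 0.008.

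With the replicate number as a block (replicate block), all 75 member values kept sign and call; 6 members were called for the difference in 6 h change and 7 for KO1. Same-numbered libraries deviated together in 1 of 15 Ythdc1 pairs of groups (r of 0 to 0.13) and in 0 of 3 Mettl3 pairs (-0.036 to 0.01) by r over 0.1, so the numbers were not taken as pairs. Depth limits Gata6 and Sox17, with at most 23 reads per library.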
